A study of Mus musculus with 6 samples.

Results

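The untreated kidney epithelial lines MKOC and TJ were set against *Tsc2*-/- and *Tsc2*+/+ mouse embryo fibroblasts (MEFs). The libraries were chosen by their labels, and they are 4 of the 6 libraries in the series, 2 on each side. The comparison itself was chosen with earlier results of these data known. The libraries left out of the comparison are the same kidney lines after 18 hours with 100 nM rapamycin, an inhibitor of mTORC1. Both kidney lines are labelled Tsc2-null, and TJ is labelled as tumor-derived, from a secondary tumor in C57BL6 mice. The labels give no p53 genotype for the kidney lines, whereas the fibroblasts are labelled Tsc2-/- p53-/- and Tsc2+/+ p53-/-. All 4 are labelled with no treatment. The treatment protocol gives a serum-free medium for diluent or rapamycin, and the labels do not tell whether the fibroblasts were kept in it. Cell type and derivation differ together between the sides, and any difference in p53 genotype or culture would lie between the same sides, so these cannot be told apart. Each line gave 1 library, so the lines stand in as the replicates of a side, and p-values measure the spread between these libraries. On the MEF side that spread holds the labelled *Tsc2* genotype as well as the line, and it is not a spread between replicate cultures.

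Epithelial cells form sheets in which E-cadherin, tight junction proteins such as claudins and occludin, desmosomes and keratin filaments bind neighbours together and separate an apical from a basal surface. Kidney tubules arise from mesenchyme and ureteric bud under Pax2 and Pax8, and mature into segments known by their transporters. Fibroblasts lie singly in a matrix of fibrillar collagens that they secrete, and embryonic fibroblasts carry transcription factors of the mesenchyme such as Twist1 and Prrx1.

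The libraries held 24010446 to 37505004 estimated counts, the fewest in *Tsc2*-/- MEFs and the most in *Tsc2*+/+ MEFs. Levels are TPM (a measure of abundance per transcript length that adds up to the same total in every library), added up within each gene symbol. Of 30281 gene symbols, 13653 reached 1 TPM in at least 1 of the 4 libraries. MKOC and TJ differed at least 2-fold, with 1 added to each TPM, in 346 of these genes (2.53%), the MEF libraries in 3884 (28.4%), and a kidney against a MEF library in 4215 to 4829. The kidney libraries were thus closer to each other than the MEF libraries were, and the labels do not state how the kidney lines are related. Both kidney libraries lay at least 2-fold above both MEF libraries in 1135 genes (8.31%) and at least 2-fold below both in 901 (6.6%). This distance between the sides, the lowest value of the higher side over the highest of the lower side, is called the gap. At any distance the sides were apart in 4594 genes above (33.6%) and 3808 below (27.9%).

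edgeR's quasi-likelihood test called 638 of 13473 tested genes higher in the kidney lines (4.74%) and 700 lower (5.2%) at an adjusted p under 0.05, and 4390 genes had an unadjusted p under 0.05. With either kidney library left out no gene was called, with 1511 genes at an unadjusted p under 0.05 without MKOC and 1487 without TJ, while 4036 were called higher and 3888 lower without *Tsc2*-/- MEFs, and 3320 and 3566 without *Tsc2*+/+ MEFs. DESeq2 called 1906 higher and 2063 lower, and limma on log2 TPM called 707 and 586.

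Summed RNA of the targeted gene did not separate the libraries by label. *Tsc2*, whose product restrains mTORC1, had 49.1 TPM in MKOC, 44.0 in TJ, 10.5 in *Tsc2*-/- MEFs and 22.6 in *Tsc2*+/+ MEFs. The libraries labelled Tsc2-null therefore held the highest and the lowest value, and the genotypes below are those of the labels. *Trp53*, which encodes p53, had 149 TPM in MKOC, 136.5 in TJ, 28.5 in *Tsc2*-/- MEFs and 26.3 in *Tsc2*+/+ MEFs. Both libraries labelled p53-/- thus held *Trp53* RNA, and the summed gene level does not show which part of the gene it came from. *Trp53* was higher in the kidney lines, with a log2 fold change of 2.18 (standard error 0.23, adjusted p = 0.0234 by edgeR). Of 22 listed p53 targets 1 was called higher and 1 lower, shares close to the 4.74% and 5.2% of all tested genes. The former was *Cdkn1a*, which encodes the cell cycle inhibitor p21, with 77.3 and 77.0 TPM in MKOC and TJ against 11.4 and 3.58 in *Tsc2*-/- and *Tsc2*+/+ MEFs. The latter was *Sesn1*, a stress-induced inhibitor of mTORC1, with 5.80 and 7.28 TPM in MKOC and TJ against 28.6 and 20.3.

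Genes of the epithelial program were higher in the kidney lines. Of 78 genes in 4 epithelial lists, 37 lay at least 2-fold above both MEF libraries and 1 lay below, against 8.31% and 6.6% of all measured genes. edgeR tested 55 of the 78 and called 18 higher, against 4.74% of all tested genes. The 56 members that reached 1 TPM in some library had a median log2 difference of 2.77 between side means of TPM with 1 added, against 0.0098 over all measured genes. The number of members at or above 1 TPM was 48 in each kidney library, 33 in *Tsc2*-/- MEFs and 11 in *Tsc2*+/+ MEFs.

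**Figure D1:**
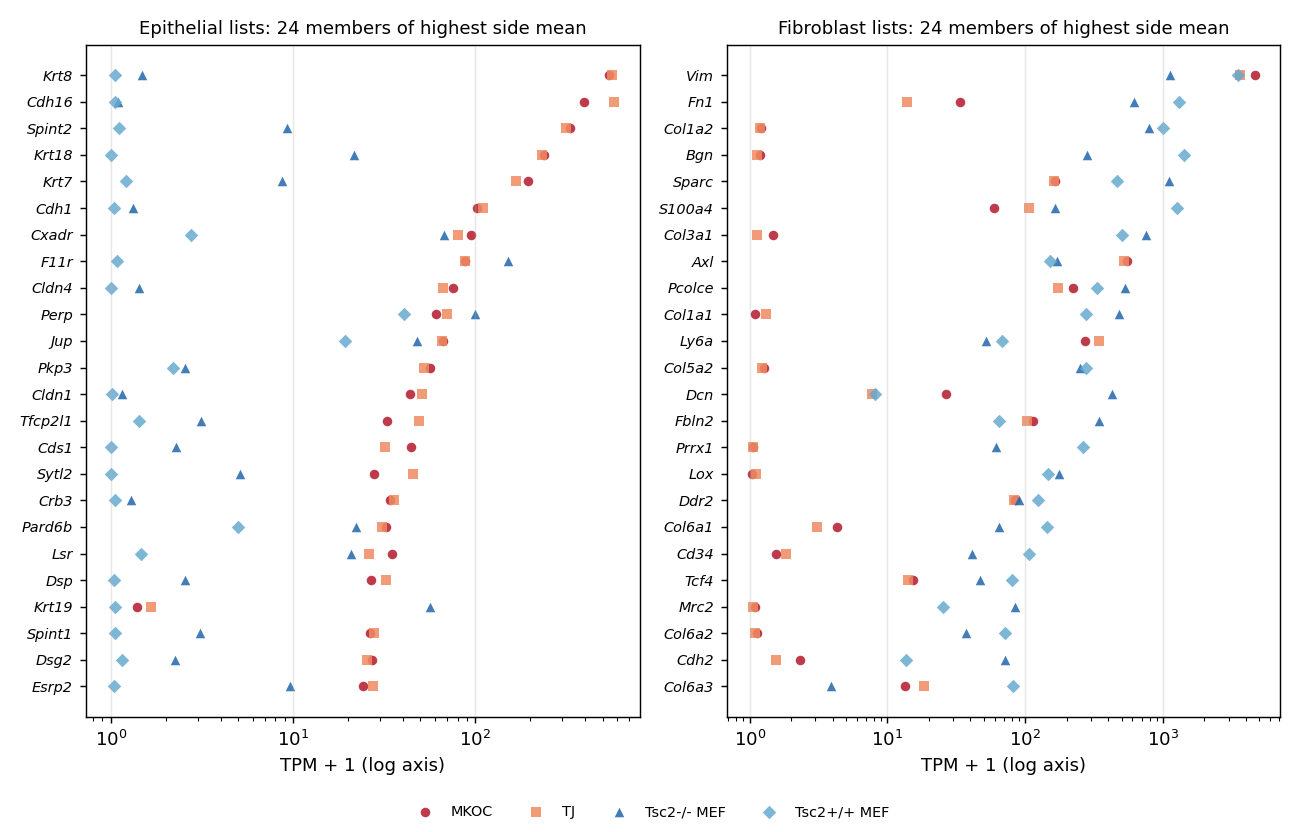
TPM with 1 added (log axis) in each of the 4 libraries for the 24 epithelial list members (left) and the 24 fibroblast list members (right) with the highest side mean among those reported here. Each point is 1 library. MKOC and TJ lie close together, *Krt8*, *Cdh16* and *Cdh1* stand far to the right of both MEF libraries, and *Col1a2*, *Bgn* and *Col3a1* far to the left.

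The cadherins that join epithelial cells separated the sides by wide gaps. *Cdh1*, the gene of E-cadherin, had 101 TPM in MKOC and 109 in TJ against 0.321 in *Tsc2*-/- MEFs and 0.0409 in *Tsc2*+/+ MEFs. *Cdh16*, the gene of kidney-specific cadherin, had 395 TPM in MKOC and 578 in TJ, with 0.0916 and 0.0564 in the *Tsc2*-/- and *Tsc2*+/+ MEFs. The groups did not overlap, and the lowest kidney value was 77.1 times the highest MEF value for *Cdh1* and 363 times for *Cdh16* with 1 added to each TPM. Their fitted log2 fold changes were 9.60 (standard error 0.85, adjusted p = 0.0169) for *Cdh1* and 12.58 (standard error 0.44, adjusted p = 0.00694) for *Cdh16*. Both genes lie on chromosome 8 of GRCm38, *Cdh16* at 104601911 to 104624396 on the minus strand and *Cdh1* at 106603351 to 106670246 on the plus strand.

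Tight junction genes followed, with claudins differing among themselves. *Cldn4*, a claudin of the distal nephron, had 74.5 TPM in MKOC and 65.2 in TJ against 0.436 and 0 in *Tsc2*-/- and *Tsc2*+/+ MEFs. *Cldn1* had 42.9 TPM in MKOC and 49.9 in TJ against 0.147 and 0.0207. *Ocln*, which encodes occludin, had 13.7 TPM in MKOC and 18.2 in TJ against 0 and 0.0361. All of them were called higher, as were *Marveld2* (tricellulin), *Tjp3* (the scaffold protein ZO-3) and the desmosomal plakophilin *Pkp3*, while *Cldn3* at 30.2 and 19.4 TPM against 0.36 and 0 did not pass (adjusted p = 0.0635). *Cldn7* and *Cldn8*, claudins of the collecting duct, and *Epcam*, a surface protein of most epithelia, stayed under 1 TPM in all 4 libraries. Of 28 junction genes, 14 lay at least 2-fold above both MEF libraries (8.31% of all measured genes) and 8 were called higher (4.74% of all tested genes).

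Promoter sequences were compared because an E-box, CACCTG, is a known binding sequence of the Snai and Zeb repressors of epithelial genes. The windows are the 250 bases before the RefSeq gene start (GRCm38.p6), and capitals mark each E-box on either strand. They are the junction and regulator list members of highest fold change that have a sequence of the window in the reference table, at chr13:100552499-100552748, chr16:26371840-26372089, chr5:134946935-134947184 and chr13:100616972-100617221, all on the minus strand.
Ocln: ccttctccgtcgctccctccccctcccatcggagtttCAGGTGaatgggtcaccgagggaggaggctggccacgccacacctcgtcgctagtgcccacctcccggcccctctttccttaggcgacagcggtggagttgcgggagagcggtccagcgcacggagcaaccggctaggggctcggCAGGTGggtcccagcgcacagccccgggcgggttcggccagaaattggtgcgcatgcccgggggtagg
Cldn1: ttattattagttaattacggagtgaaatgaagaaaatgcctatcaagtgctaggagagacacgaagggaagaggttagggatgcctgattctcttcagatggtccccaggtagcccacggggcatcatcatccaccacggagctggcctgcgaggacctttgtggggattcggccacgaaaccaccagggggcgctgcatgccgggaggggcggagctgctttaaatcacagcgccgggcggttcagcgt
Cldn4: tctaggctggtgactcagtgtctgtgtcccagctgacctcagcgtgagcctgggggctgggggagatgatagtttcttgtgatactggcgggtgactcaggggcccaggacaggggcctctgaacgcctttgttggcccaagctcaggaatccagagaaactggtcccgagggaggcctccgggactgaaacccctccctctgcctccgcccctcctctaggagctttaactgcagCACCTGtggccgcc
Marveld2: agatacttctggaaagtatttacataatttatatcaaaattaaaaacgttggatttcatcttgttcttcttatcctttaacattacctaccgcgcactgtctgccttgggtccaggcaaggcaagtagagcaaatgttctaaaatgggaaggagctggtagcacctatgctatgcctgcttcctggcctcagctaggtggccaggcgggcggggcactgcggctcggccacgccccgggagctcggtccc
*Ocln* held 2 E-boxes and *Cldn4* held 1, whereas *Cldn1* and *Marveld2* held none. *Ocln* and *Marveld2* are neighbours on chromosome 13. An E-box was present in 27 of the 42 epithelial list members with a window (64.3%), in 4 of 49 fibroblast list members (8.16%) and in 15.1% of the 9785 measured genes with a window. The contrast was smaller outside these chosen lists. It was present in 21.7% of genes called higher and 12.9% of genes called lower that have a window. Among the epithelial members with a window it was present in 12 of 19 that lay at least 2-fold above both MEF libraries (63.2%) and in 15 of 23 others (65.2%), a difference that was not tested. AACCGGTT, a grainyhead-like sequence and its own reverse, was in none of the list members and in 0.225% of all windows. A match is a description and no evidence of binding, and *Cdh1* and *Cdh16* were not analysed here for motifs.

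Keratins of simple epithelia were abundant in the kidney lines. *Krt8* had 539 TPM in MKOC and 560 in TJ against 0.477 in *Tsc2*-/- MEFs and 0.0590 in *Tsc2*+/+ MEFs, with a log2 fold change of 11.16 (standard error 0.89, adjusted p = 0.0161). *Krt18*, which pairs with *Krt8* in filaments, had 237 TPM in MKOC and 232 in TJ, and its MEF values were 20.6 and 0. *Krt7* had 195 and 166 TPM in the kidney lines against 7.71 and 0.214. The gap was 10.8-fold for *Krt18* and 19.2-fold for *Krt7*, but neither passed the test (adjusted p = 0.246 and 0.122), and *Tsc2*-/- MEFs held more of both than *Tsc2*+/+ MEFs. *Krt20*, a keratin of injured tubules and urothelium, was lower in level, with 4.47 TPM in MKOC and 4.38 in TJ, and had no count in either MEF library, so it was at least 39.5-fold higher and was called. *Krt19* went the other way, with 0.392 and 0.672 TPM in MKOC and TJ, 55.6 in *Tsc2*-/- MEFs and 0.0506 in *Tsc2*+/+ MEFs. *Krt80*, *Krt7*, *Krt8* and *Krt18* lie in this order on chromosome 15, with no other protein-coding gene in between that reached 1 TPM in a library, between 101347444 and 102032027, and their gaps ran from 4.84-fold for *Krt80* to 366-fold for *Krt8*.

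Regulators of the epithelial state separated in part. *Esrp1*, a splicing factor of epithelial exons, had 13.6 TPM in MKOC and 12.04 in TJ against 0.0175 and 0.0187 in *Tsc2*-/- and *Tsc2*+/+ MEFs (log2 fold change 9.54, standard error 0.49, adjusted p = 0.0100). *Tfcp2l1*, a transcription factor of the distal tubule and collecting duct, had 31.7 and 47.9 TPM against 2.13 and 0.424. *Elf3* and *Ripk4* were called as well. *Grhl2* and *Ovol2*, which maintain epithelial gene expression in many tissues, and *Foxa1* were under 1 TPM in all 4 libraries. *Grhl1* went against its list, with no count in the kidney lines, 1.23 TPM in *Tsc2*-/- MEFs and 3.48 in *Tsc2*+/+ MEFs, and was not called (adjusted p = 0.0575). *Ehf*, an epithelial Ets factor, differed between MKOC and TJ, with 2.09 TPM in MKOC and 24.3 in TJ.

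Some polarity and surface protease genes had wide gaps, and 3 of the 16 tested were called. *Spint2*, a membrane inhibitor of serine proteases, had 328 TPM in MKOC and 315 in TJ against 8.31 and 0.116 in *Tsc2*-/- and *Tsc2*+/+ MEFs (adjusted p = 0.0992). *Crb3*, an apical polarity protein, had 33.2 and 34.7 TPM against 0.299 and 0.0545 and was called. The protease genes *St14* (matriptase) and *Prss8* (prostasin) were called at low levels, between 1.86 and 3.55 TPM in the kidney lines. Of the 22 listed genes, 20 are in the table, 10 lay at least 2-fold above both MEF libraries (8.31% of all measured genes) and 3 were called (4.74% of all tested genes).

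Whether the epithelial genes also stood apart from *Tsc2*-/- MEFs alone was read library by library, which compares cells that share the labelled loss of *Tsc2*. All 37 genes above both MEF libraries are above *Tsc2*-/- MEFs by construction, and no further member was at least 2-fold above *Tsc2*-/- MEFs alone, whereas 46 were at least 2-fold above *Tsc2*+/+ MEFs, against 9.92% and 20.5% of all measured genes. In the other direction 7 members were at least 2-fold below *Tsc2*-/- MEFs and 1 below *Tsc2*+/+ MEFs, against 16.3% and 10.2%. The 9 members in between included junction genes at substantial levels. *F11r*, the gene of junctional adhesion molecule A, had 86.3 TPM in MKOC, 86.5 in TJ and 149.8 in *Tsc2*-/- MEFs, but 0.0817 in *Tsc2*+/+ MEFs. *Cxadr* had 93.5, 79.8 and 66.4 TPM in that order and 1.75 in *Tsc2*+/+ MEFs. *Cgn*, which encodes cingulin, had 17.7, 19.99 and 23.0 TPM and 1.41 in *Tsc2*+/+ MEFs. The other 6, which were within 2-fold of *Tsc2*-/- MEFs and at least 2-fold above *Tsc2*+/+ MEFs, were *Lsr*, *Jup*, *Pkp2*, *Pard6b*, *Muc1* and *Klf5*. The *Tsc2*-/- MEF library thus held a share of the junction genes and nearly none of E-cadherin, *Cdh16*, *Krt8* or *Esrp1*. It also held mesothelial markers, whose part in these values was not tested. Of 13 listed, 9 were at least 2-fold higher in it than in either kidney library (16.3% of all measured genes). *Upk3b* reached 154 TPM in *Tsc2*-/- MEFs and at most 0.115 in the other 3 libraries. The list summed to 842 TPM against 347 in MKOC, 277 in TJ and 114 in *Tsc2*+/+ MEFs. Of its members 11 reached 1 TPM in *Tsc2*-/- MEFs, 2 in each kidney library and 3 in *Tsc2*+/+ MEFs. Few members thus made up the kidney sums.

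**Figure D2:**
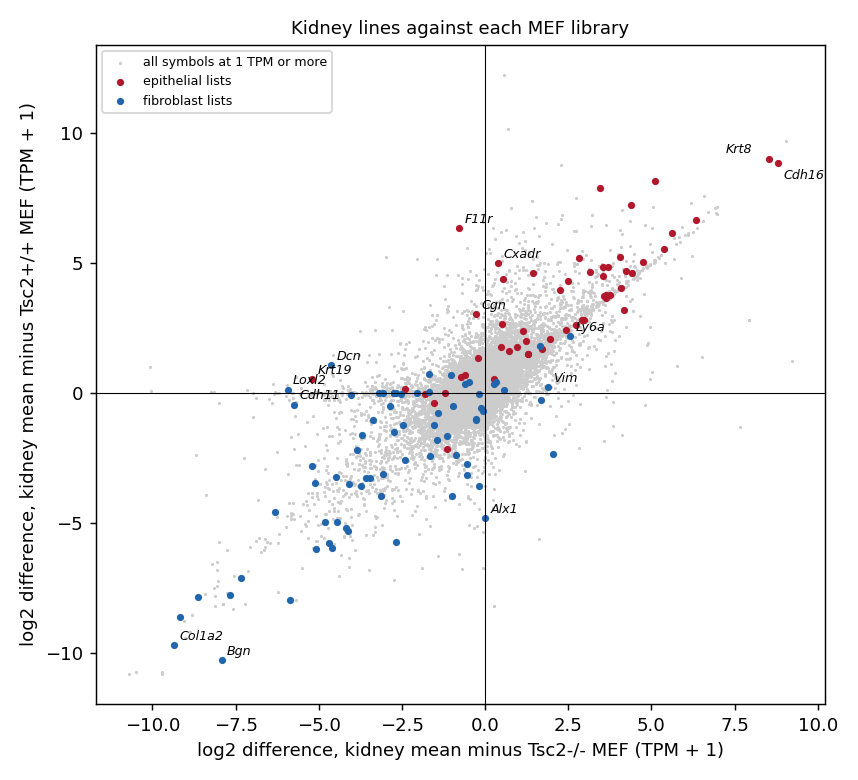
Log2 difference of the kidney mean from *Tsc2*-/- MEFs (horizontal) and from *Tsc2*+/+ MEFs (vertical), TPM with 1 added, for the 13653 measured genes (grey), epithelial list members (red) and fibroblast list members (blue) reported here. *F11r*, *Cxadr* and *Cgn* lie near 0 on the horizontal axis and high on the vertical one, while *Krt8* and *Cdh16* are high on both and *Col1a2* and *Bgn* are low on both.

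The kidney lines carried transcription factors of the early nephron and the ureteric bud. *Pax8* had 141 TPM in MKOC and 147 in TJ against 0.203 in *Tsc2*-/- MEFs and 0.0466 in *Tsc2*+/+ MEFs, a log2 fold change of 9.90 (standard error 0.57, adjusted p = 0.0127). *Pax2* had 14.96 and 15.1 TPM and no count in either MEF library. Measured against 3 counts, *Pax2* was at least 239-fold higher. *Sall1*, *Hoxa11*, *Tfap2a* and the weakly expressed *Sim1* were called higher too. In all, 7 of 26 lineage factors were called higher and 7 lay at least 2-fold above both MEF libraries, against 4.74% of all tested and 8.31% of all measured genes. *Osr1*, a gene of nephrogenic and other intermediate mesoderm, was the 1 factor called lower, with 0.163 and 0.212 TPM in MKOC and TJ against 11.2 and 10.99 in the MEFs. *Emx2*, *Eya1* and *Sox9* were expressed on both sides and not called, and *Hnf4a*, a factor of the proximal tubule, was under 1 TPM in all 4 libraries.

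The labelled cell type was borne by junction, keratin and lineage genes, whereas markers of mature segments were mostly near 0. Among 19 proximal tubule markers 5 reached 1 TPM in any library, and 1 of the 4 tested was called higher, against 4.74% of all tested genes. That gene was *Ggt1*, a brush border peptidase, with 8.28 and 7.30 TPM in MKOC and TJ against 0.580 and 0.341. *Aqp1*, the water channel of proximal tubule and thin limb, had 24.3 TPM in MKOC and 8.74 in TJ, but 61.3 in *Tsc2*+/+ MEFs. In the loop and distal list, *Trpm6*, a magnesium channel of the distal convoluted tubule, was called higher with 7.31 and 10.5 TPM against 0.0817 and 0.225, while *Umod*, *Slc12a1* and *Slc12a3* were under 1 TPM throughout. In the collecting duct list, *Aqp6* and *Slc26a4*, genes of intercalated cells, were called higher at 0.859 to 2.83 TPM. *Aqp3*, the basolateral water channel of principal cells, had 11.2 and 16.2 TPM against 1.22 and 4.39 and was not called (adjusted p = 0.135), and *Aqp2* was under 1 TPM. Of 9 glomerular markers, 2 lay at least 2-fold above both MEF libraries and 2 below, against 8.31% and 6.6% of all measured genes. Among them 2 were called higher and 1 lower, against 4.74% and 5.2% of all tested genes. The podocyte gene *Podxl* had at most 0.117 TPM in the kidney lines and 163 TPM in *Tsc2*-/- MEFs. It is also a member of the mesothelial list, which was high in that library.

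**Figure D3:**
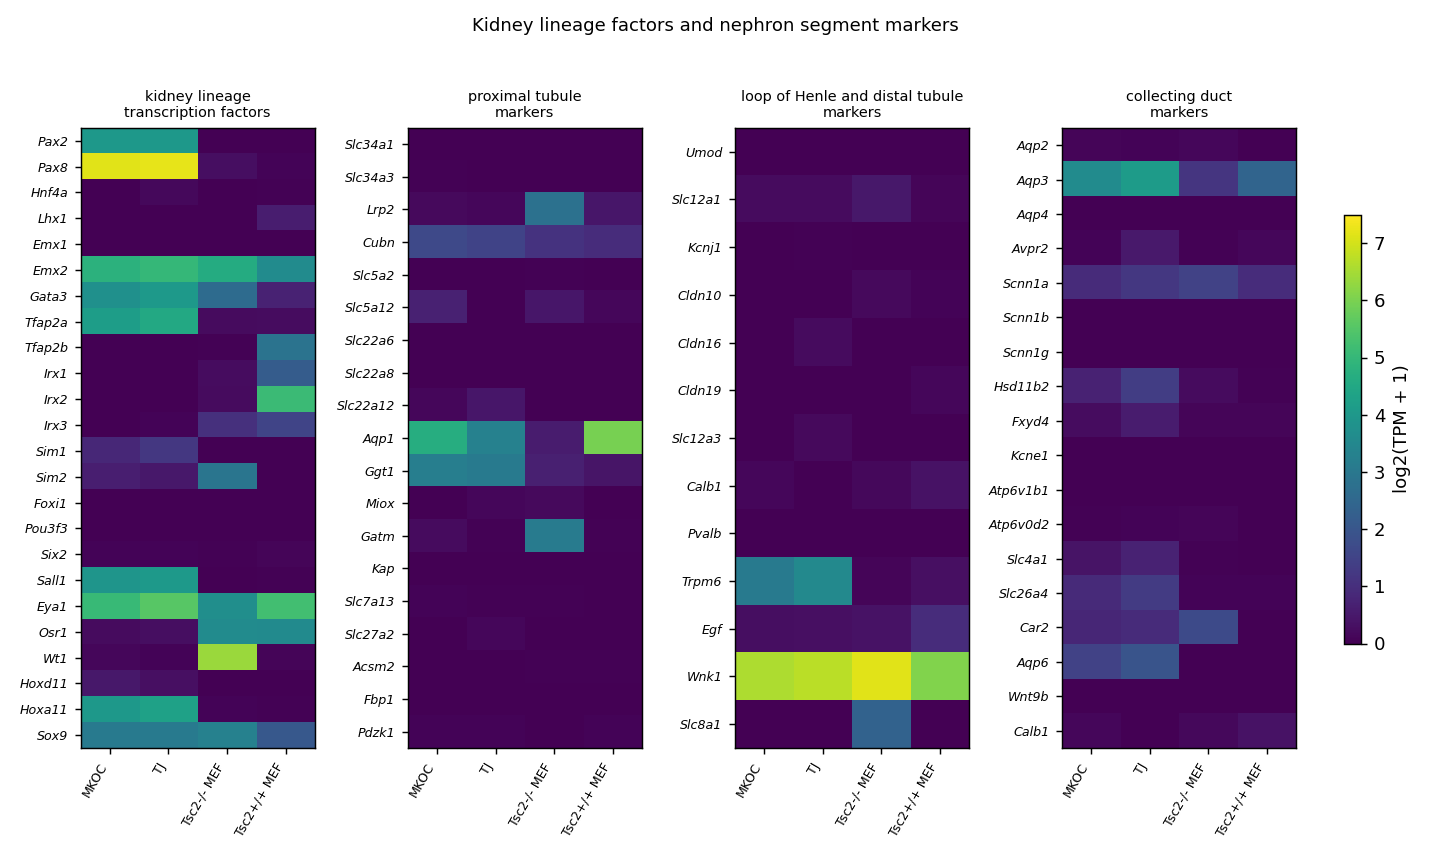
Colour gives log2 of TPM with 1 added in each library (columns) for the kidney lineage factors reported here and for markers of proximal tubule, loop and distal tubule and collecting duct (rows). *Pax8* and *Pax2* are bright in MKOC and TJ and dark in both MEF libraries, and most rows of the segment panels are dark in all 4.

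Genes linked to injured or dedifferentiated tubules moved both ways. *Lcn2*, a secreted marker of tubule injury, had 339 TPM in MKOC and 944 in TJ against 15.3 and 15.2 in the MEFs, and was called higher with *Cdkn1a* and *Krt20*. *Vcam1*, an adhesion molecule of a failed-repair state, had 1.96 and 2.84 TPM against 39.4 and 146.5 and was called lower with *Sox4*. *Spp1*, the gene of osteopontin, had 1467 and 1833 TPM in the kidney lines, 29.0 in *Tsc2*-/- MEFs and 794 in *Tsc2*+/+ MEFs, so its gap against *Tsc2*-/- MEFs was 49.0-fold and against both it was 1.85-fold. *Havcr1*, the kidney injury molecule, had 0.262 TPM in MKOC and 4.01 in TJ. Of 14 genes, 4 lay at least 2-fold above both MEF libraries and 2 below, against 8.31% and 6.6% of all measured genes.

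Genes of the fibroblast program were lower in the kidney lines. Of 85 genes in 3 fibroblast lists, 33 lay at least 2-fold below both MEF libraries and 2 lay above, against 6.6% and 8.31% of all measured genes. edgeR tested 65 of the 85 and called 27 lower and 2 higher, against 5.2% and 4.74% of all tested genes. The median log2 difference of the 73 measured members was -2.36. At or above 1 TPM were 29 members in MKOC, 28 in TJ, 66 in *Tsc2*-/- MEFs and 59 in *Tsc2*+/+ MEFs. Transcripts shorter than 300 bases took 20.9% of TPM in *Tsc2*+/+ MEFs and 4.09% to 7.12% in the other libraries, which scales the remaining TPM of each library. In bulk RNA, fewer cells of a type and less RNA per cell cannot be told apart.

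Fibrillar collagens of types I and III were nearly absent from the kidney lines. *Col1a1* had 0.0950 TPM in MKOC and 0.309 in TJ against 474 in *Tsc2*-/- MEFs and 274 in *Tsc2*+/+ MEFs, and *Col1a2*, the other chain of type I collagen, had 0.208 and 0.188 against 788 and 996. *Col3a1* had 0.473 and 0.139 TPM in MKOC and TJ against 751 and 503. Their log2 fold changes were -11.78 (standard error 0.40, adjusted p = 0.00694), -12.77 (standard error 0.69, adjusted p = 0.0112) and -13.05 (standard error 0.36, adjusted p = 0.00694). *Col5a2*, which lies beside *Col3a1* on chromosome 1 at 45374321 to 45503282, was called lower too, and *Col5a1*, whose product joins *Col5a2* in type V collagen, was not, with 32.5 and 27.9 TPM against 42.3 and 22.1. *Col6a1* and *Col6a2* were lower, whereas *Col6a3* had 12.5 and 17.4 TPM in the kidney lines, 2.89 in *Tsc2*-/- MEFs and 80.0 in *Tsc2*+/+ MEFs. The chains of types V and VI therefore did not move together.

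Other matrix genes were lower by varied amounts. *Bgn*, the proteoglycan biglycan, had 0.181 and 0.124 TPM in MKOC and TJ against 277 and 1418 in the MEFs. *Fbln5*, an elastic fibre protein, had no count in the kidney lines and 27.0 and 30.2 TPM in the MEFs, so it was at least 918-fold lower. *Lox*, the collagen and elastin crosslinking enzyme, had 0.0348 and 0.113 TPM against 174 and 146. *Fn1* was lower without being absent, with 32.6 and 12.9 TPM against 612 and 1306, and so was *Sparc*, with 164 and 162 against 1097 and 460. Of 32 matrix genes, 17 lay at least 2-fold below both MEF libraries (6.6% of all measured genes) and 14 were called lower (5.2% of all tested genes). *Dcn*, the proteoglycan decorin, had 25.5 and 6.73 TPM in MKOC and TJ, 422 in *Tsc2*-/- MEFs and 7.08 in *Tsc2*+/+ MEFs. *Dcn*, *Fbn1* and *Loxl2* had gaps of 15.98-fold to 59.1-fold below *Tsc2*-/- MEFs and under 2-fold against both MEF libraries.

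Mesenchymal transcription factors divided into silent and shared genes. *Twist1* had no count in either kidney line and 16.2 and 10.3 TPM in *Tsc2*-/- and *Tsc2*+/+ MEFs, at least 88.8-fold lower, and *Twist2* and *Foxc1* were likewise without counts in the kidney lines. *Prrx1* had 0.0626 and 0.0497 TPM in MKOC and TJ against 60.6 and 261. *Zeb1*, a repressor of *Cdh1*, had 3.84 and 3.81 TPM against 24.8 and 28.02, a log2 fold change of -3.10 (standard error 0.30, adjusted p = 0.0201). *Zeb2*, its paralog, had 14.4 TPM in each kidney line against 22.4 and 10.9, and *Snai2* had 5.33 and 3.40 against 28.7 and 11.4, and neither was called. *Runx1* and *Runx2* were expressed on both sides and not called. Of 35 factors 9 lay at least 2-fold below both MEF libraries (6.6% of all measured genes) and 7 were called lower (5.2% of all tested genes). *Alx1*, a homeobox gene of craniofacial mesenchyme, had 27.1 TPM in *Tsc2*+/+ MEFs and 0 in the other 3 libraries.

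Fibroblast surface genes held the exceptions. *Pdgfra* and *Pdgfrb*, the receptors for platelet-derived growth factor, had at most 0.180 TPM in the kidney lines against 10.8 to 36.1 in the MEFs and were called lower, as were *Cd34*, *Mrc2*, *Cdh2* (N-cadherin) and *Cd248*. *Ly6a*, which encodes the stem cell antigen Sca-1, went against the list, with 270 TPM in MKOC and 343 in TJ against 51.3 and 66.6. *Axl*, a receptor tyrosine kinase, had 550 and 516 TPM against 169 and 150, and both were called higher. *Vim*, the intermediate filament of mesenchymal cells, was abundant in all 4 libraries, with 4676 TPM in MKOC, 3609 in TJ, 1118 in *Tsc2*-/- MEFs and 3522 in *Tsc2*+/+ MEFs, and was not called (adjusted p = 0.659). The kidney lines thus held *Cdh1* and *Krt8* together with *Vim*.

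**Figure D4:**
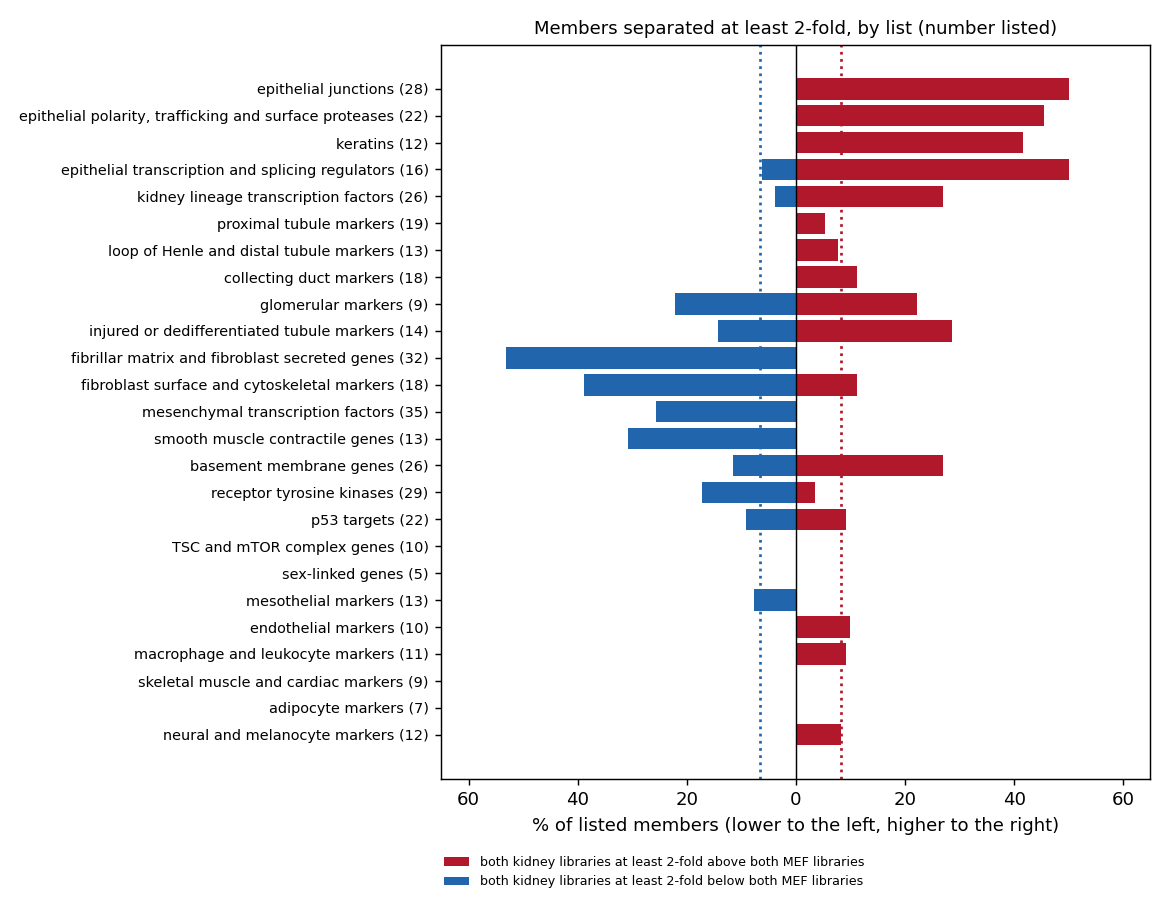
Share of each list's members (percent of those listed, number in parentheses) whose kidney values both lay at least 2-fold above (red, to the right) or below (blue, to the left) both MEF values. Dotted lines mark the shares over all measured genes, 8.31% and 6.6%. The bars also count listed members that were not measured, so the 2 kinds of share have unlike denominators. Epithelial lists extend to the right, with 14 of 28 junction genes, and matrix genes to the left, with 17 of 32.

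Of 13 contractile genes of smooth muscle and myofibroblasts, 4 lay at least 2-fold below both MEF libraries (6.6% of all measured genes), and the same number were called lower (5.2% of all tested genes). *Acta2*, smooth muscle actin, had 0.529 and 0.485 TPM in MKOC and TJ against 394 and 225 in the MEFs, a log2 fold change of -9.30 (standard error 0.29, adjusted p = 0.00694). *Tagln*, *Tpm2* and *Myl9* were called lower as well. *Cnn1*, the gene of calponin-1, had 0.341 and 0.659 TPM in MKOC and TJ, 7.62 in *Tsc2*-/- MEFs and 0 in *Tsc2*+/+ MEFs, and was not called. *Tpm1* and *Cald1*, with forms outside muscle, lay between 202 and 653 TPM in the 4 libraries and were not called.

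Basement membrane genes split between the sides. *Nid1*, the linker nidogen-1, had 0.0339 and 0.0189 TPM in MKOC and TJ against 221 and 211 (log2 fold change -13.05, standard error 0.47, adjusted p = 0.00715), and *Lamc1*, *Lamb2* and *Col4a5* were lower by less. *Col18a1*, with 73.4 and 89.5 TPM against 6.07 and 11.7, was higher, as were *Col4a3*, a chain of the mature glomerular network, and *Lama3*, a chain of laminin-332. *Lamb3*, a further chain of laminin-332, had 24.6 and 27.1 TPM against 0.833 and 2.79 and was not called. Of 26 genes, 7 lay at least 2-fold above and 3 below both MEF libraries (8.31% and 6.6% of all measured genes), and 3 were called higher and 4 lower (4.74% and 5.2% of all tested genes). Against *Tsc2*-/- MEFs alone 8 lay above and 13 below, where all measured genes gave 9.92% and 16.3%. Among 29 receptor tyrosine kinases *Axl* was the 1 called higher, and *Pdgfra*, *Pdgfrb*, *Ephb2*, *Mertk* and *Flt1* were called lower, against 4.74% and 5.2% of all tested genes, while *Met*, the receptor of hepatocyte growth factor, lay between 42.3 and 63.8 TPM in the 4 libraries and was not called.

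Markers of other cell types were low on both sides with few exceptions. Of the lists for endothelium, leukocytes, skeletal and heart muscle, adipocytes, and neural and melanocyte cells, 1 of 16 tested genes was called, where 4.74% of all tested genes were called higher. It was *Cdh5* of endothelium, at 3.30 TPM in MKOC and 1.13 in TJ. *Pecam1*, *Ptprc*, *Adgre1*, *Myod1*, *Adipoq* and *Sox10* were under 1 TPM in every library. Adipocyte markers summed to 196 TPM in *Tsc2*-/- MEFs against 9.37 in MKOC, 7.08 in TJ and 1.92 in *Tsc2*+/+ MEFs. Most of this was *Lpl*, lipoprotein lipase, at 180 TPM, and *Lpl*, *Pparg* and *Fabp4* were at least 2-fold higher in *Tsc2*-/- MEFs than in either kidney library. *Csf1r*, a macrophage receptor, had 11.3 TPM in MKOC and 24.99 in TJ against 1.77 and 0.0162 and was not called. *Gpnmb*, a lysosomal glycoprotein of melanocytes and macrophages, had 338 and 379 TPM against 11.4 and 98.3 and was not called.

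The 15 genes with the highest fitted fold change past the test included secreted and apical proteins of epithelia. *Wfdc2*, a secreted protease inhibitor of epithelia, had 827 TPM in MKOC and 830 in TJ against 0.559 and 0 in *Tsc2*-/- and *Tsc2*+/+ MEFs. *Mal*, an apical sorting protein of tubule cells, had 119 and 134 TPM against 0.212 and 0.0122. *Wnt7b*, the Wnt ligand of the collecting duct, had 80.1 and 84.6 TPM against 0 and 0.00996. *Sprr1b*, a cornified envelope protein of squamous epithelia, had 91.2 and 153 TPM and no count in the MEFs, at least 305-fold higher. Others among them were *Pax2*, *Cdh16*, *Brinp3*, *Hoxd10*, *Sult1c2*, *B3gnt3*, *Il24*, *Ggt6*, *Slc25a21* and *Adgrf5*. Of the 15 with the lowest, *Fbln5*, *Bgn*, *Nid1*, *Col3a1* and *Foxc1* are list members. *Fgf10*, a mesenchymal growth factor for epithelial branching, had no count in the kidney lines and 8.74 and 26.7 TPM in the MEFs, at least 205-fold lower. Others among them were *Obsl1*, *Cdca7l*, *Dctd*, *Epdr1*, *Bhlhb9*, *Sgce* and *Dnajc27*.

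Held against *Tsc2*-/- MEFs alone, 1355 genes lay at least 2-fold higher in both kidney libraries (9.92%) and 2228 lower (16.3%). Of the former, 1135 (83.8%) also lay above *Tsc2*+/+ MEFs at that distance, and of the latter 901 (40.4%) also lay below. For the fibroblast lists 49 of 85 members lay below *Tsc2*-/- MEFs, 41 below *Tsc2*+/+ MEFs (10.2% of all measured genes) and 33 below both, and for the matrix list alone 24 and 17 of 32. The MEF side of this comparison has 1 library, and no test was made of these counts.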

How the data were processed

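Poly(A) RNA of mouse cell lines was sequenced from stranded libraries. Reads were trimmed by the authors and quantified with Kallisto (version not given in the sources used here). The deposited table gives the estimated counts, the TPM and the effective length of 88198 Ensembl mouse transcripts, 1 column per library. The paper names hg38 as the Kallisto reference, and the strand setting is not stated. The authors also deposited a fold change between the MEF libraries, a ratio whose values were not used here beyond the gene symbols beside them. Of the transcripts, 1006 had no symbol (0.372% to 0.468% of estimated counts) and were left out.

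Estimated counts were summed per symbol, rounded, filtered with filterByExpr by side, normalized by TMM and tested with edgeR 4.0.16 (quasi-likelihood, Benjamini-Hochberg at 0.05, 2 residual degrees of freedom) in R 4.3.3. Standard errors are the log2 fold change over the square root of the F statistic. TPM was summed per symbol, and gaps used TPM with 1 added, which understates changes of low genes. Where every library of a side had 0 counts, the stated bound sets the lowest TPM of the other side against 3 counts per library, which covers counting error only. Positions are from GENCODE M21 (GRCm38), which held 86119 of the transcripts, and promoters from RefSeq. Alternatives used DESeq2 1.42.0, limma 3.58.1, other normalizations, filters, pseudocounts and scalings. Python 3.11.15, numpy 2.4.6, pandas 2.3.3 and matplotlib 3.10.9 were used.

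The 4 libraries were set by their labels. This comparison and its 25 gene lists (414 symbols, 3 of them not in the table) were chosen with earlier results of these data known. Unless stated otherwise, counts of list members are out of all listed genes, some of them not measured or not tested. The shares set beside them are of all measured or all tested genes. Other genes named are the 15 with the highest and the 15 with the lowest fitted log2 fold change among called genes whose sides did not overlap and whose higher side averaged at least 10 TPM, without predicted genes, pseudogenes and mitochondrial genes. Within lists, genes were named by the larger side mean or because they went against the list, with further ones chosen after their values were seen. Some genes that these rules select are not reported here. Counts of similar genes and of overlapping genes may be divided uncertainly by Kallisto.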

Additional observations from a re-analysis of the deposited data

How the results depend on the processing

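The counts of edgeR calls, 638 higher and 700 lower, were 1672 and 1563 with the rapamycin libraries fitted as a group of their own, and 1906 and 2063 with DESeq2. Leaving out each library in turn gave 0 to 4036 higher and 0 to 3888 lower, with the lone library assumed to vary like the other side. The edgeR count was 0 without MKOC and without TJ (1511 and 1487 genes at an unadjusted p under 0.05, no other tool run), and 4036 and 3888 without *Tsc2*-/- MEFs. Upper-quartile normalization, no filter on low counts, limma and rapamycin-treated in place of untreated kidney libraries gave counts within 1.5 times. The genes at least 2-fold above both MEF libraries (1135), below both (901), above *Tsc2*-/- MEFs (1355) and below *Tsc2*-/- MEFs (2228) became 696, 483, 819 and 1250 with 5 TPM added in place of 1, became 4594, 3808, 5251 and 7112 at any distance, and became 187, 222, 233 and 530 at 8-fold. With a filter of 10 TPM in at least 1 library, 1340 lay below *Tsc2*-/- MEFs. Without each library in turn, 1135 became 1355 to 2800 above both and 901 became 1037 to 2228 below both, with 2800 and 1391 without *Tsc2*-/- MEFs and 1355 and 2228 without *Tsc2*+/+ MEFs. Scaling to a median ratio of 1, CPM, leaving out transcripts under 300 bases and 0.1 TPM added kept these 4 counts within 1.5 times. The median log2 difference of all genes moved from 0.0098 to -0.0896 with scaling, -0.121 without transcripts under 300 bases and -0.122 with CPM.

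Of the 25 counts of list members called in 1 direction, all 25 became 0 without either kidney library, and 21 and 20 rose by over 1.5 times without *Tsc2*-/- and without *Tsc2*+/+ MEFs. By the same measure 14 rose with DESeq2 and 7 with all 6 libraries, limma and the rapamycin-treated libraries each raised 2 and lowered 2, 1 was lowered with no filter on low counts, and upper-quartile normalization kept all 25 within 1.5 times. The cause of these changes was not tested. No paired analysis was possible because the labels give the lines no shared replicate numbers. With 1 library per line, the spread between cultures of a line was not measured.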

Other observations

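A set of genes chosen after the values were seen was read as present on one side and absent on the other, with at least 5 TPM in both libraries of a side and at most 3 counts in both of the other. It held 81 genes in the kidney lines only (0.593% of measured genes, 70 of them neither predicted genes nor pseudogenes) and 122 in the MEFs only (0.894%, 89 of them). In the kidney lines alone were *Fxyd2*, a regulator of the tubule sodium pump, with 114 TPM in MKOC and 172 in TJ, *Bsnd*, the chloride channel subunit barttin, with 8.30 and 16.1 TPM, and *Pkhd1*, the gene of fibrocystin, with 5.33 and 7.002 TPM. Secreted factors among them were *Wnt7a*, *Bmp7*, *Areg*, *Csf3* and *Il24*, of which *Csf3*, the granulocyte growth factor, had 19.5 TPM in MKOC and 46.3 in TJ. In the MEFs alone were *Cxcl12*, a chemokine of stromal cells, with 144 TPM in *Tsc2*-/- and 118 in *Tsc2*+/+ MEFs, *Stc2* with 15.5 and 34.0, and *Gli3*, a transcription factor of hedgehog signalling, with 10.04 and 6.49.

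Some genes that separated the sides are neighbours. Among 12895 measured protein-coding genes in genome order, 16 runs of at least 3 consecutive genes lay at least 2-fold below both MEF libraries and 25 runs lay above. Of these, 16 and 18 held at least 3 genes that are not predicted genes. The runs held 58 genes below and 91 above. Of all measured genes 6.6% lay at least 2-fold below both MEF libraries and 8.31% above. How many runs these shares alone would give was not worked out. On chromosome 6 the run *Bet1*, *Col1a2*, *Casd1*, *Sgce* and *Peg10* lay below. *Casd1* had 0 counts in MKOC and 1 in TJ, against 19.8 TPM in *Tsc2*-/- MEFs and 17.9 in *Tsc2*+/+ MEFs. *Sgce* and *Peg10*, an imprinted pair, had 0 counts in both kidney lines, against 58.5 and 17.8 TPM for *Sgce* and 96.9 and 6.54 for *Peg10* in *Tsc2*-/- and *Tsc2*+/+ MEFs. *Peg10* was not called (adjusted p = 0.0665 by edgeR), while the other genes of the run were called lower. From *Col1a2* to *Peg10* this stretch covers 255704 bases of GRCm38, from 4504814 to 4760517. Measured genes around it varied in the kidney lines. *Gng11* had 0.0714 TPM in MKOC and 0 in TJ, *Bet1* had 16.1 and 15.4, *Ppp1r9a* had 4.67 and 0.845, and *Pon3* had 27.7 and 32.6.

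Other runs below were the *Armcx1*, *Armcx6*, *Armcx3* and *Armcx2* cluster on the X chromosome and the interferon-induced *Gbp7*, *Gbp3*, *Gbp2b* and *Gbp2* on chromosome 3. *Armcx2* had 0.0528 TPM in MKOC and 0.104 in TJ against 126 and 55.2 in *Tsc2*-/- and *Tsc2*+/+ MEFs, and *Gbp3* had 0.875 and 2.83 against 42.3 and 185. Of these genes *Armcx6*, *Gbp3* and *Gbp2* were not called by edgeR (adjusted p = 0.0544 for *Gbp3*), and the others were called lower. Runs above included *Hoxa9*, *Hoxa10* and *Hoxa11* on chromosome 6 and *Hoxd8*, *Hoxd9* and *Hoxd10* on chromosome 2. *Hoxa9* had 46.2 TPM in MKOC and 59.9 in TJ against 1.41 and 0.820, and *Hoxd9* had 31.5 and 28.7 against 3.56 and 0. By edgeR *Hoxa9*, *Hoxa11* and *Hoxd10* were called higher, while *Hoxa10*, *Hoxd8* and *Hoxd9* were not (adjusted p = 0.249 for *Hoxd9*). These runs were found by looking and were not tested. Members of the *Serpinb9*, *Zscan4* and *Prl2c* clusters also formed runs, and the counts of these near-identical copies are uncertain. *Tmem254a* and *Tmem254b*, in another run above, had identical values in every library, as had some predicted genes in runs above.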
